A study of Mus musculus with 8 samples.

Results

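The suppressor of cytokine signalling (SOCS) family was described across 4 kinds of mouse helper T cell: sorted follicular helper cells (Tfh) and cultured Th1, Th2 and Th17 cells. The family was taken as the 8 genes Cish and Socs1 to Socs7, out of 18193 genes that had an array probe set with 1 gene symbol. These 8 genes had 24 such probe sets, of which 19 passed a filter on low values, and every one of the 8 genes had at least 1 that passed. Each gene is given by its brightest probe set on average, called the main one here, and its others served as a check.

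SOCS proteins are feedback inhibitors of the JAK-STAT pathway, in which cytokine receptors activate Janus kinases that phosphorylate STAT transcription factors. Each has an SH2 domain, which binds phosphorylated tyrosines, and a SOCS box, which recruits elongin and cullin proteins into a ubiquitin ligase. Cish, Socs1, Socs2 and Socs3 are themselves induced by STATs, and in T cells they restrain signals such as those of IL-2, interferon-gamma, IL-4 and IL-6. Socs4 to Socs7 are less studied in T cells, and several of them are known to act on receptor tyrosine kinases.

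RNA was measured on 8 Affymetrix arrays, 2 for each kind of cell. The Tfh samples were CD4+CXCR5+ T cells sorted on day 7 from spleens of C57BL/6 mice immunized with KLH (keyhole limpet haemocyanin), then restimulated with anti-CD3 for 4 h. The Th1, Th2 and Th17 samples were naive CD4 T cells from the spleen and lymph nodes of OT-II mice on the C57BL/6 background, aged 6 to 8 weeks, whose transgenic T cell receptor recognizes an ovalbumin peptide. They were cultured for 5 days with OT-II peptide and antigen-presenting cells. Th1 cultures received 10 ng/ml IL-12 with anti-IL-4, Th2 cultures 10 ng/ml IL-4 with anti-IFNg, and Th17 cultures 20 ng/ml IL-6 with TGFb, anti-IL-4 and anti-IFNg. The labels give no age for the Tfh mice, no restimulation for the cultured cells, and no word on whether the replicates are different animals or cultures, so p-values measure the spread between these samples, which may be technical. The sources do not say which arrays were processed together. Cell type, sorting against culture, the receptor used, restimulation and any difference in array processing cannot be told apart between the Tfh group and the others.

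Values are GCRMA levels on the log2 scale, so a difference of 1 is a doubling, and no level of one gene is set against that of another. The Tfh arrays had higher values as a whole: their 75th percentiles were 8.46 and 8.47, against 6.97 to 7.06 on the cultured arrays. The median tested gene was therefore above Th1 by 0.85, above Th2 by 0.84 and above Th17 by 0.83 in Tfh, and -0.16 in each after quantile normalization of the 8 arrays. For this reason each member's Tfh differences below are also given after that normalization. The 2 Tfh arrays were closer to each other than any other pair, with 11 tested genes differing by more than 1, against 1435, 696 and 1339 in the Th1, Th2 and Th17 pairs. Mean levels of the Tfh markers were 11.23 and 11.19 in the Tfh arrays and 6.30 to 7.54 elsewhere, and those of the T cell markers were 13.22 and 13.14 against 11.10 to 11.94. Neutrophil markers averaged 10.49 and 10.46 in Tfh, with 10 of 10 genes above the filter value in both arrays, and 2.47 to 5.39 in the cultured arrays, with 0 to 8 of 10. Myeloid and dendritic cell markers were 7.82 and 7.78 in Tfh and 4.56 to 8.61 in cultures, the highest being Th2 replicate 1. B cell markers were 6.93 and 6.94 in Tfh and 3.25 to 6.53 in cultures. In both lists the genes went different ways. Lyz2 (11.42 and 11.31 against 1.86 to 10.26) and Cd22 (7.07 and 7.06 against 3.44 to 5.43) were above every cultured array. Blnk was within the cultured range (6.25 and 6.26 against 2.35 to 8.42). Itgax, at 2.49 and 2.48 in Tfh, was below the Th2 and Th17 arrays (3.73 to 6.80). Regulatory T cell markers were 11.89 and 11.85 against 8.38 to 9.62, but the listed genes went different ways. Foxp3 (10.79 and 10.73 against 2.36 to 2.40) and Ikzf2 (12.89 and 12.84 against 4.39 to 7.16) were above every cultured array. Il2ra was below every cultured array (10.01 and 9.99 against 10.96 to 13.04), and Ctla4 and Tnfrsf18 lay within the cultured range. CD8 and NK cell markers were 4.84 and 4.86 in Tfh and 4.08 to 8.04 in cultures, the highest being Th1 replicate 1. Erythroid and platelet markers were 2.85 and 2.73 in Tfh and 3.08 to 6.50 in cultures, the highest being Th2 replicate 1. The part of these other cells in the SOCS values was not tested. In such bulk samples fewer cells of a type and less RNA per cell cannot be told apart.

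**Figure D1:**
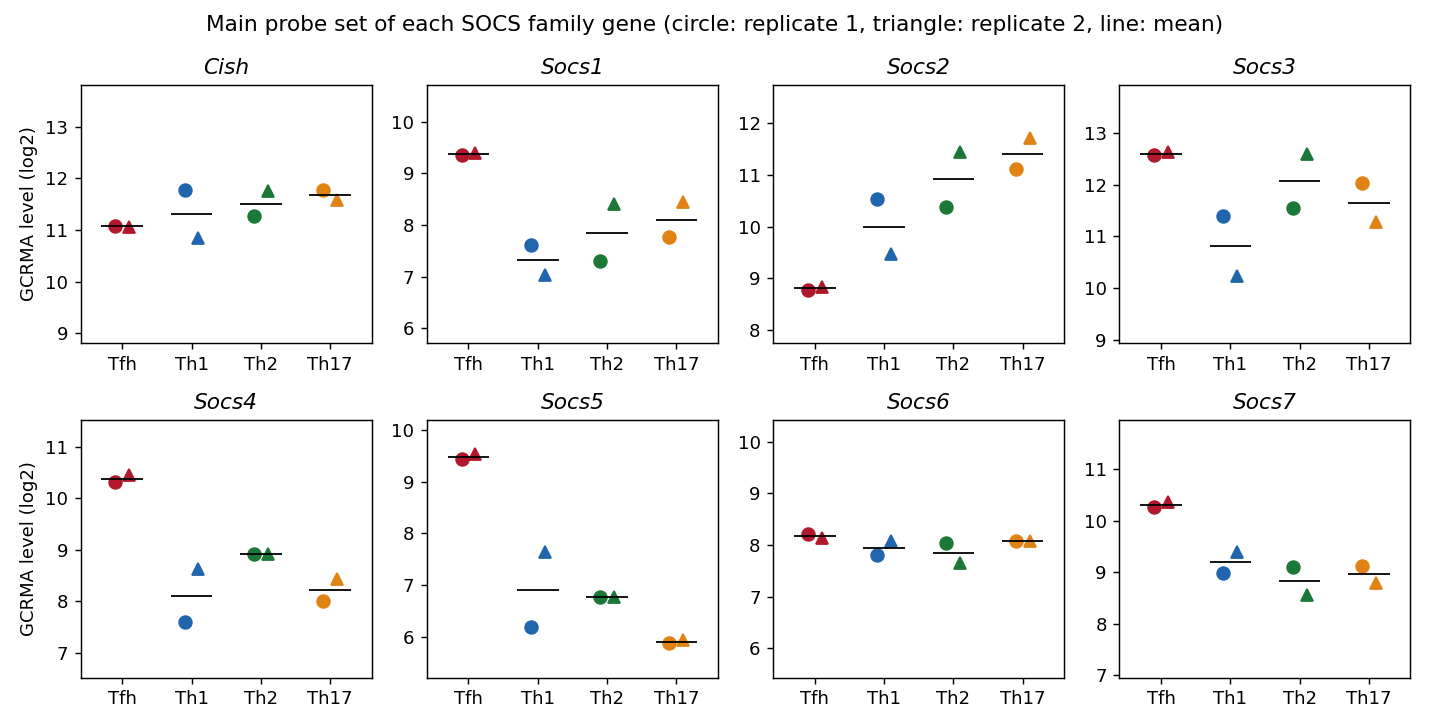
GCRMA level (log2, vertical axis, each panel spanning the same range) of the main probe set of the 8 SOCS family genes in each cell type; circles are replicate 1, triangles replicate 2 and lines the mean of the 2. Socs2 is lower in both Tfh arrays, near 8.8, than in any cultured array, while Socs1, Socs4, Socs5, Socs6 and Socs7 are higher in both. For Socs6 the gap is small, with 8.14 in the lower Tfh array and 8.08 in the highest cultured one.

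A gene counted as called at an adjusted p below 0.05 (limma, Benjamini-Hochberg over 11178 tested genes) with a difference of at least 1 in size. Each gene has 1 estimate of spread shared by all groups, so its SE and p also reflect groups outside a comparison. Of the 8 genes, 5 were called higher in Tfh than in Th1 and 0 lower, beside 42.8% and 6.16% of all tested genes. Against Th2, 4 were higher and 1 lower, beside 42.8% and 6.89%. Against Th17, 4 were higher and 1 lower, beside 41.8% and 6.17%. The family's median difference was 1.45, 0.99 and 1.11 in the same order. A large share of all tested genes was thus called higher in Tfh, and the 3 comparisons share their Tfh arrays. After quantile normalization 1 member was higher and 3 lower than in Th1 (15.6% and 21.2% of all tested genes), 1 and 3 against Th2 (16.1% and 21.3%), and 2 and 3 against Th17 (14% and 20.3%). Calls that stood as deposited, after quantile normalization and after shifting each array to 1 median were Socs4 higher against Th1, Socs5 higher and Socs2 lower against Th2, and Socs4 and Socs5 higher with Socs2 lower against Th17. Such a call upwards was made for 15.5%, 16% and 13.9% of tested genes against Th1, Th2 and Th17, and downwards for 6.11%, 6.86% and 6.13%.

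**Figure D2:**
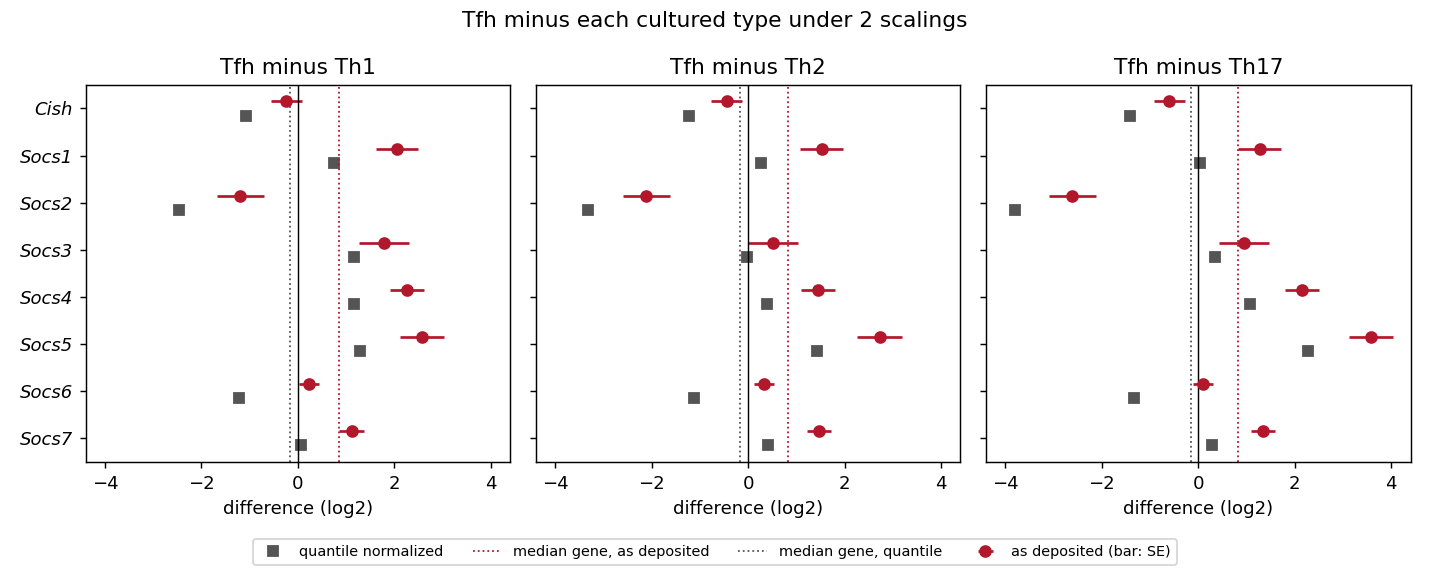
Difference between Tfh and each cultured type (log2, horizontal axis) for the 8 genes; circles with SE bars are deposited values, squares are quantile-normalized values, and dotted lines mark the median tested gene on each scale. Socs2 lies left of 0 on both scales in all panels and Socs5 right of 0, whereas Socs6 is just right of 0 as deposited and left of it after normalization.

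Socs2, a STAT5-induced member best known for limiting growth hormone signalling, was the only member called lower in Tfh as deposited. Its level was 8.78 and 8.83 in the Tfh arrays, 10.54 and 9.46 in Th1, 10.38 and 11.45 in Th2, and 11.11 and 11.71 in Th17. Both Tfh arrays were below all 6 cultured arrays, with Th1 replicate 2 the nearest, and the Th1, Th2 and Th17 arrays formed an increasing order of means in which neighbouring types did not differ beyond their spread. Socs2 was lower in Tfh than in Th17 by a difference of -2.61 (SE 0.49, adjusted p = 0.0050), a 6.10-fold change, and lower than in Th2 by -2.11 (SE 0.49, adjusted p = 0.0107). The difference from Th1 was -1.19 (SE 0.49, adjusted p = 0.0746) and was not called, although without Th1 replicate 2 it was -1.73 with adjusted p = 0.0351. After quantile normalization the 3 differences, in the order Th1, Th2 and Th17, were -2.45, -3.33 and -3.81 and all passed, with adjusted p = 0.00713, 0.00237 and 0.00164. Leaving out an array ended the Th2 call for Tfh replicate 1 (adjusted p = 0.0555), Tfh replicate 2 (0.0518) or Th2 replicate 2 (0.0512). Within each array, Socs2 ranked at percentile 77.5 and 77.7 of all probe sets in Tfh and between 89.3 and 96.9 in the cultures. Its second probe set differed by -1.10, -2.21 and -2.65 from Th1, Th2 and Th17, whereas a dimmer one, between 5.25 and 6.64, differed by 0.10, -0.17 and -0.42 and was not called. The other 3 Socs2 probe sets did not pass the filter.

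Cish, another STAT5-induced member, which acts on IL-2 and T cell receptor signalling, was called in no comparison as deposited. It stood at 11.09 and 11.06 in Tfh, 11.77 and 10.85 in Th1, 11.27 and 11.75 in Th2, and 11.76 and 11.58 in Th17. The Tfh arrays lay below the Th2 and Th17 arrays and between those of Th1. The differences were -0.24, -0.44 and -0.60 from Th1, Th2 and Th17 (SE 0.32), with adjusted p = 0.540, 0.274 and 0.152. After quantile normalization they were -1.08, -1.23 and -1.43 and were called, with adjusted p = 0.0318, 0.0201 and 0.0130, and by rank Cish stood at percentile 92.5 and 92.4 in Tfh and 94.7 to 97 in cultures. Whether Cish was lower in Tfh thus depended on the scaling.

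The Cish promoter is shown because STAT5 is known to bind motifs of the form TTCNNNGAA near this start site. It lies at chr9:107296409-107296678 (GRCm38.p6, RefSeq, plus strand), and capitals mark matches of TTCNNNGAA, whose pattern is the same on both strands. The first match begins at the annotated start.
Cish: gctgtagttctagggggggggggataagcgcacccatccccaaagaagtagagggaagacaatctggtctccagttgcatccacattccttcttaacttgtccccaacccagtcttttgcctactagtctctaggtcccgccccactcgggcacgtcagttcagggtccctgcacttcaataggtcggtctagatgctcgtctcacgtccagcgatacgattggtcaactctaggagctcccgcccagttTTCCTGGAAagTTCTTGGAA
The 2 matches compare with a match in 8.3% of 32851 promoters of 300 bases, and with 2 or more matches in 0.457%. A match is a description of the letters, not a measured binding site.

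Socs1 and Socs3 are the members that bind and inhibit JAK kinases directly. Socs1 is required to limit interferon-gamma signalling. Its level was 9.36 and 9.40 in Tfh, 7.60 and 7.03 in Th1, 7.29 and 8.41 in Th2, and 7.77 and 8.44 in Th17. All 6 cultured arrays lay below both Tfh arrays, and the 3 cultured types overlapped apart from Th1 and Th17. The differences were 2.06 from Th1 (SE 0.44, adjusted p = 0.00811), 1.52 from Th2 (adjusted p = 0.0245) and 1.27 from Th17 (adjusted p = 0.0458), and all were called. After quantile normalization the differences were 0.75, 0.26 and 0.031 and none passed (adjusted p = 0.180, 0.624 and 0.957), and after the median shift the Th2 and Th17 calls were lost (0.0703 and 0.147). By rank the Tfh arrays, at percentile 81.9 and 82.0, lay within the cultured range of 75.4 to 83.8. Leaving out an array ended the Th2 call for Tfh replicate 1 (adjusted p = 0.0947), Tfh replicate 2 (0.100) or Th2 replicate 1 (0.97 difference, 0.0986). The call against Th17 was lost without Tfh replicate 1 (0.144), Tfh replicate 2 (0.153), Th1 replicate 1 (0.0550), Th1 replicate 2 (0.0547), Th17 replicate 1 (0.185) or Th17 replicate 2 (0.0512). Socs1 had 1 probe set.

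The Socs1 and Socs3 promoters are shown for their interferon-type and STAT-type motifs. Socs1 is at chr16:10785537-10785786 (minus strand) and Socs3 at chr11:117969367-117969616 (minus strand), both GRCm38.p6 from RefSeq. Capitals mark GAAA, any 2 bases and GAAA again in Socs1 and TTCNNNGAA in Socs3, each searched on both strands; both sequences end at the base before the start.
Socs1: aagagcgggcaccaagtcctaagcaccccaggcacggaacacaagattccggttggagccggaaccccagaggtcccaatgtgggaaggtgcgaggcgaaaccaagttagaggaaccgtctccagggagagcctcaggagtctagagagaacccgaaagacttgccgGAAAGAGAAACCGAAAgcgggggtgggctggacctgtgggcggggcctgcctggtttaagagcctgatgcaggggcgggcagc
Socs3: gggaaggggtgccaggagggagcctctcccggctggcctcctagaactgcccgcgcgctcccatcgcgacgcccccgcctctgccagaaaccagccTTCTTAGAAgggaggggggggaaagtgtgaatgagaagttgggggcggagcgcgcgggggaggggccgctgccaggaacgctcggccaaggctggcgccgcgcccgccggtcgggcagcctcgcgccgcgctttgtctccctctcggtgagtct
In Socs1 the matches at bases 168 to 177 and 174 to 183 overlap, and this motif was found in 3.44% of promoters, with 2 or more matches in 0.225%. Socs3 had 1 match, at bases 97 to 105. The promoter table held 4 of the 8 genes, and in the fourth, Socs4, neither motif was found.

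Socs3, induced by STAT3 and known for shutting off IL-6 signalling through the receptor subunit gp130, was called higher in Tfh than in Th1. Its level was 12.57 and 12.64 in Tfh, 11.40 and 10.23 in Th1, 11.56 and 12.60 in Th2, and 12.03 and 11.28 in Th17. The Tfh arrays were above both Th1 and both Th17 arrays, and Th2 replicate 2 lay between them. The difference from Th1 was 1.78 (SE 0.52, adjusted p = 0.0246), and those from Th2 and Th17 were 0.52 and 0.95 (adjusted p = 0.404 and 0.157). Leaving out an array ended the Th1 call for Tfh replicate 1 (adjusted p = 0.0905), Tfh replicate 2 (0.0991) or Th1 replicate 2 (difference 1.20, adjusted p = 0.103). It also failed after the median shift (adjusted p = 0.0645) and after quantile normalization (0.0961), where the differences were 1.17, -0.016 and 0.36. The other 2 probe sets gave larger differences: 2.87, 1.88 and 1.99 for the brighter, all called, and 2.71, 1.58 and 1.64 for the dimmer, called against Th1 only (adjusted p = 0.0123, 0.0748 and 0.0684). The probe sets therefore disagreed on whether Socs3 differed from Th2 and Th17.

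Socs5, reported to bind the IL-4 receptor and the EGF receptor, had the largest called difference of the 8 genes. Its level was 9.44 and 9.54 in Tfh, 6.18 and 7.64 in Th1, 6.76 and 6.76 in Th2, and 5.87 and 5.94 in Th17. Every cultured array lay at least 1 below both Tfh arrays, and Th17 held the lowest. The SD was 1.04 in Th1 and at most 0.073 in the other groups, while the SE is shared by all. The differences were 2.58, 2.73 and 3.58 from Th1, Th2 and Th17 (SE 0.46, adjusted p = 0.00409, 0.00316 and 0.00120), and the last is a 11.99-fold change. They were called without any 1 array, with adjusted p of at most 0.0307, 0.0255 and 0.0131. After quantile normalization the differences were 1.28, 1.42 and 2.28 with adjusted p = 0.0541, 0.0385 and 0.00837, so the Th1 call was lost, and by rank Tfh stood at percentile 82.5 and 83.0 against 68.0 to 79.1. The dimmer probe set, at 6.97 and 6.88 in Tfh and 5.30 to 6.34 in cultures, differed by 1.28, 0.63 and 1.48, with the Th2 difference not called (adjusted p = 0.0857).

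Socs4, which is known to act on the EGF receptor, was higher in Tfh by its main probe set. The levels were 10.32 and 10.45 in Tfh, 7.60 and 8.63 in Th1, 8.93 and 8.92 in Th2, and 8.01 and 8.44 in Th17. Both Tfh arrays were above all cultured arrays, and the Th1 and Th17 arrays overlapped. The differences were 2.27, 1.46 and 2.16 (SE 0.35, adjusted p = 0.00235, 0.0125 and 0.00293). Against Th1 and Th17 they stayed called without any 1 array and after quantile normalization (differences 1.17 and 1.08, adjusted p = 0.0282 and 0.0389), where the Th2 difference of 0.39 did not pass (0.352). The Th2 call was also lost without Tfh replicate 1 (0.0548), Tfh replicate 2 (0.0692), Th2 replicate 1 (0.0536) or Th2 replicate 2 (0.0541). A second probe set went the other way: at 2.25 and 2.19 in Tfh it was below the filter value of 3.13, and at 4.28 to 4.64 in cultures it was above it. That probe set differed by -2.23, -2.18 and -2.30, all called. The remaining 2, near 6.4 and 4.1 on average, were not called, so the Socs4 result rests on 1 of 4 probe sets.

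**Figure D3:**
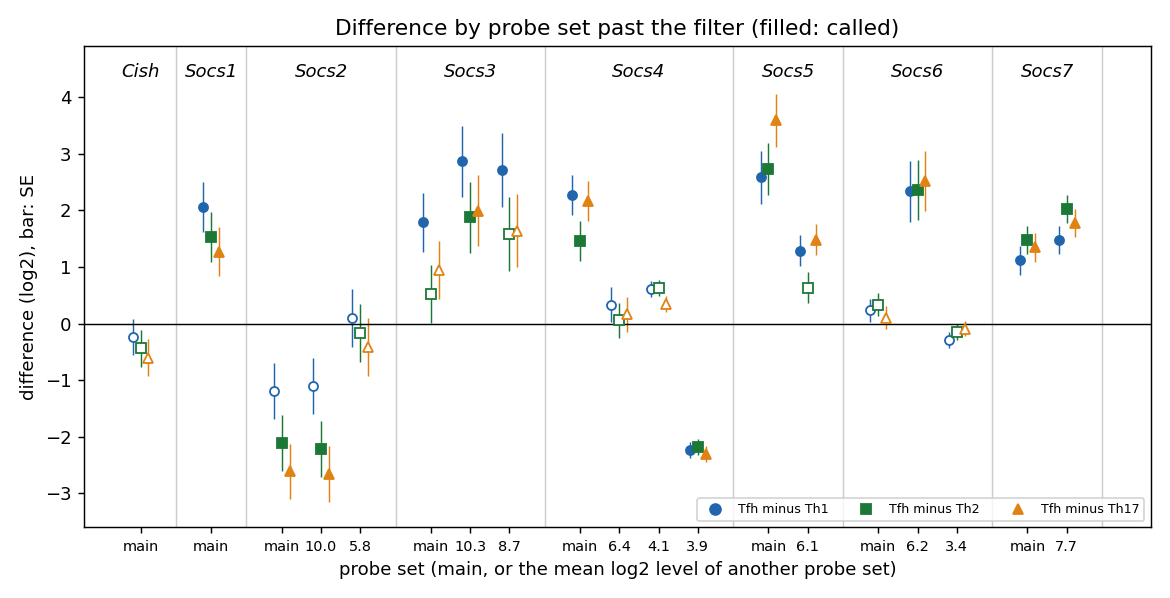
Tfh minus each cultured type (log2, vertical axis, SE bars) for all 19 probe sets that passed the filter, grouped by gene; filled points were called, and each other probe set is marked by its mean log2 level. The main and next Socs2 probe sets run together, while the dimmest of Socs4 lies near -2.2 against positive values for its main one.

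Socs7, which binds adaptor proteins and is known in insulin signalling, was higher in Tfh by both probe sets that passed the filter. The main one was at 10.26 and 10.36 in Tfh, 8.99 and 9.40 in Th1, 9.11 and 8.56 in Th2, and 9.13 and 8.80 in Th17. All cultured arrays were lower than both Tfh arrays and overlapped among themselves. The differences were 1.12, 1.48 and 1.34 (SE 0.25, adjusted p = 0.0101, 0.00331 and 0.00507), and by the second probe set they were 1.48, 2.02 and 1.77, all called. After quantile normalization the main probe set differed by 0.066, 0.41 and 0.28 and none passed (adjusted p = 0.832, 0.200 and 0.369). After the median shift the Th1 and Th17 differences were 0.73 and 0.95, under the threshold of 1. The Th1 call was lost without Tfh replicate 2 (adjusted p = 0.0604) or Th1 replicate 1 (difference 0.91, under 1, with adjusted p = 0.0454).

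Socs6, which binds the receptor kinase Kit, showed no call by its main probe set. Its level was 8.21 and 8.14 in Tfh, 7.81 and 8.07 in Th1, 8.03 and 7.65 in Th2, and 8.07 and 8.08 in Th17. The Tfh arrays were the highest, with Th17 replicate 2 the closest to them. The differences were 0.24, 0.33 and 0.10 (SE 0.20), with 95% intervals reaching up to 0.73, 0.83 and 0.60. After quantile normalization they were -1.22, -1.12 and -1.33 and called lower (adjusted p = 0.00379, 0.00499 and 0.00301), and by rank Socs6 was at percentile 73.2 and 72.6 in Tfh and 79.1 to 81.8 in cultures. A second probe set, at 7.72 and 8.28 in Tfh and 5.04 to 6.21 in cultures, differed by 2.33, 2.36 and 2.52 as deposited and was called against all 3. Another probe set, near the filter value at 3.24 to 3.74, differed by -0.29, -0.15 and -0.093 and was not called. The sign of the main Socs6 probe set thus turned with the scaling.

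Across the family, both Tfh arrays were above all 6 cultured arrays for 5 of 8 genes and below for 1, beside 60.5% and 13.8% of tested genes. After quantile normalization the counts were 2 and 3, beside 28.8% and 40%. Counting the 2 Tfh arrays as 1 sample left the differences unchanged. In all 3 comparisons with Tfh, fewer members and fewer of all tested genes were then called.

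Between the cultured types, which differed in cytokines and blocking antibodies, 0 of the 8 genes were called. All tested genes called came to 1.24% for Th1 against Th2, 0.143% for Th1 against Th17 and 0.671% for Th2 against Th17. Among the 8 genes in these 3 pairs, the lowest unadjusted p (limma) was that of Socs2 for Th1 against Th17. It was lower in Th1, with a difference of -1.42 (SE 0.49, unadjusted p = 0.0287, 95% interval -2.62 to -0.21). This did not pass adjustment (adjusted p = 0.421). Socs3 differed by -1.26 between Th1 and Th2 (95% interval -2.53 to 0.015), and Socs5 by 1.01 between Th1 and Th17 (-0.14 to 2.15). Without Th1 replicate 1 the Socs5 difference was 1.74 with adjusted p = 0.0372, the 1 call gained between cultured types when an array was left out. The arrays of the 2 types did not overlap for 2 genes between Th1 and Th2, 4 between Th1 and Th17 and 3 between Th2 and Th17, beside 43.5%, 31.7% and 44.5% of tested genes. Th1 replicate 2 was the lowest of the 6 cultured arrays for Cish, Socs1, Socs2 and Socs3 and the highest for Socs5 and Socs7. The share of all tested genes lowest or highest in that array was not counted. The Th1 replicates, the pair with the most tested genes differing by more than 1, differed by up to 1.46 among the members, for Socs5.

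**Figure D4:**
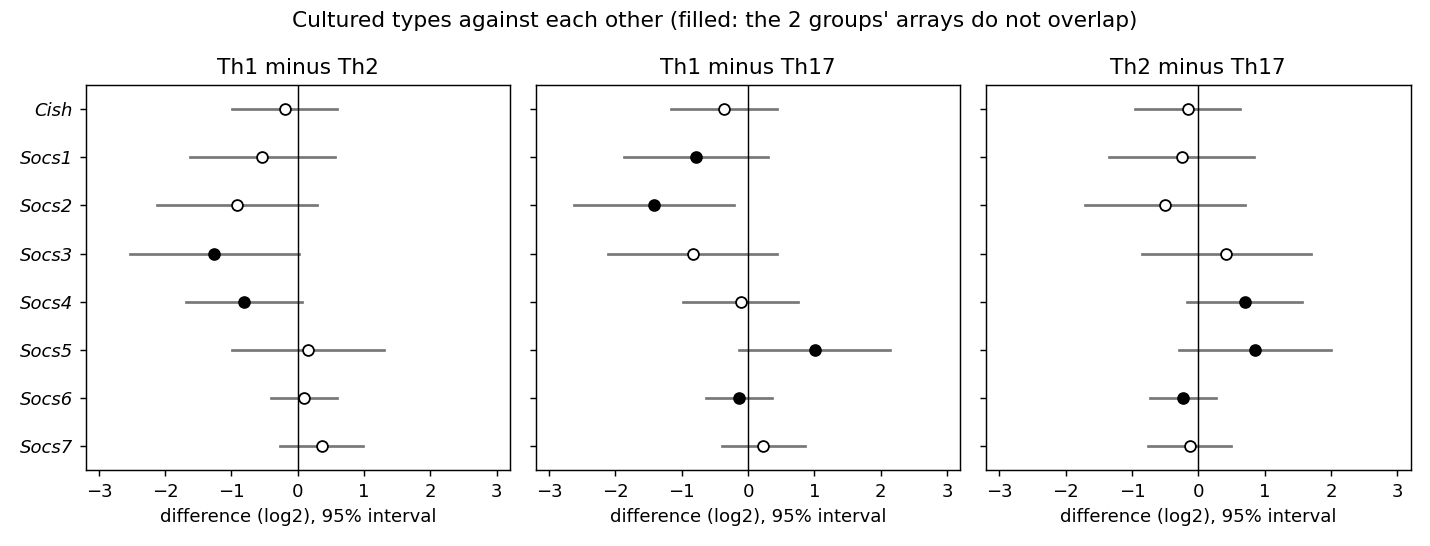
Difference between cultured types (log2, horizontal axis) with 95% intervals for the 8 genes; filled points mark genes whose arrays do not overlap between the types. The intervals are not adjusted for the number of tests, and only that of Socs2 in Th1 minus Th17 lies wholly on 1 side of 0.

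Genes around the family in the pathway were counted from lists of known members. Counts as deposited are read beside the 42.8%, 42.8% and 41.8% of all tested genes called higher in Tfh than in Th1, Th2 or Th17. The shares called lower were 6.16%, 6.89% and 6.17%. Counts that stood on every scaling are read beside 15.5%, 16% and 13.9% higher and 6.11%, 6.86% and 6.13% lower. Differences are as deposited unless stated. Of 13 other JAK-STAT inhibitors, 9, 10 and 9 were called higher in Tfh against Th1, Th2 and Th17 respectively and 0 lower, with medians of 1.41, 1.91 and 1.57; 2, 4 and 3 of these calls stood on every scaling. Pias3, an inhibitor of STAT3 binding to DNA, was at 7.49 and 7.95 in Tfh and 3.16 to 3.93 in cultures, and Cblb, a ubiquitin ligase that restrains T cell activation, at 13.64 and 13.60 against 8.98 to 11.58. Both were above every cultured array and were called against all 3 types on every scaling. Of the 9 partners that the SOCS box recruits 2, 1 and 1 were called higher and 0 lower, and 0 of these calls stood on every scaling. Rbx1, the RING subunit, differed by 2.02, 2.11 and 1.60 as deposited and by 0.43, 0.52 and 0.080 after quantile normalization. Of 28 other SOCS box proteins 14 were tested, and 13, 11 and 12 were higher and 1, 2 and 1 lower. On every scaling 3, 3 and 2 of the higher calls stood, and 1, 2 and 1 of the lower. Spsb1 was at 9.64 and 9.69 in Tfh and 2.00 to 6.06 in cultures. Asb2, by contrast, was highest in Th2, at 9.28 and 9.84, between 7.12 and 7.42 in Th17, and 5.98 and 5.74 in Th1. It was called lower in Th1 than in Th2 (difference -3.70, adjusted p = 0.00399) and higher in Th2 than in Th17 (2.29, adjusted p = 0.0248).

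Of 10 JAKs and STATs, 8, 7 and 8 were called higher in Tfh and 0 lower, and 5, 6 and 6 of these calls stood on every scaling. Stat5b was at 12.38 and 12.40 in Tfh and 8.57 to 9.61 in cultures, and Stat3 at 13.59 and 13.49 against 10.45 to 11.25. Among 21 cytokine receptor subunits 10, 6 and 7 were higher and 3, 2 and 3 lower, and on every scaling 4, 4 and 3 were higher and 3, 2 and 3 lower. Il6ra and Il6st, which form the IL-6 receptor that Socs3 restrains, were higher by 5.75, 5.54 and 4.50 and by 3.96, 3.08 and 4.45, and were called on every scaling. Il2ra, the IL-2 receptor alpha chain and a STAT5 target, was lower: 10.01 and 9.99 in Tfh against 10.96 to 13.04. Both Tfh arrays were thus below every cultured array, as for Socs2.

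Of 9 STAT5 targets 2 were higher and 3 lower in each comparison. The 3 lower ones were Il2ra (-1.69, -2.68 and -2.72), Osm, a gp130 cytokine (-2.39, -2.20 and -2.68), and Ccnd2, a cell cycle cyclin (-1.29, -1.97 and -1.45), and all were called on every scaling. The 2 higher ones were the kinases Pim1 and Pim2, but on every scaling 1, 1 and 0 of their calls stood, each of them Pim2. STAT3 targets had 4, 3 and 2 of 9 higher and 0 lower, of which 4, 2 and 1 stood on every scaling. STAT6 targets had 3, 0 and 2 of 7 higher and 1, 2 and 1 lower, all standing on every scaling. Of 16 JAK-STAT cytokines 1 was higher in each comparison and 6, 9 and 3 were lower, and on every scaling 1, 0 and 1 were higher and 5, 9 and 3 lower. Il3 was at 5.89 and 5.57 in Tfh and 8.81 to 14.94 in cultures, and Csf2 at 8.74 and 8.65 against 9.82 to 13.79, with Tfh below every cultured array for both.

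For members called in some comparison, the genes of most similar pattern were found by Pearson correlation over the 8 arrays, as a description, since the groups and their scale are shared by all genes. For Socs2 these were Glipr2 (r = 0.979), Igfbp4 (0.968) and Mgarp (0.966), and after quantile normalization r was 0.990, 0.980 and 0.975. Glipr2 was at 8.21 and 8.26 in Tfh and 9.18 to 11.08 in cultures. For Socs5 they were Hnrnpa2b1 (0.997), Stard3 (0.997) and Ccnyl1 (0.991), and after quantile normalization r was 0.975, 0.936 and 0.835. For Socs4 they were Slf2 (0.994), Atp6v1h (0.994) and Vmn2r84 (0.992), with 0.975, 0.988 and 0.972 after that normalization. For Socs7 they were Metap2 (0.992), Aifm1 (0.992) and Usp24 (0.990), with 0.870, 0.814 and 0.726. For Socs1 the most similar was Rplp0 (0.998, and 0.536 after quantile normalization), and for Socs3 it was Ier3ip1 (0.949, and 0.192).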

How the data were processed

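RNA from 8 samples, 2 in each of 4 groups taken from the labels, was measured on arrays of 45101 probe sets. Per the submitters' processing notes the authors made the deposited log2 values with GCRMA, a method that adjusts background by probe sequence before normalizing and summarizing probe sets. Its version, and which arrays entered it together, are not given in the sources used here. With this few arrays, their number limits the precision.

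Symbols came from the platform annotation: 34945 probe sets had 1 symbol, 932 several and 9160 none, and 64 controls were left out. Each gene was represented by its probe set of highest mean. A gene was tested if at least 2 arrays exceeded the median of all values (3.13), which left 11178. Group means over all 8 arrays were fitted with limma 3.58.1 in R 4.3.3, with moderation by empirical Bayes and a mean-level trend (degrees of freedom: 4 residual, 1.78 prior). Tests were two-sided, with Benjamini-Hochberg adjustment over all tested genes; a call needed adjusted p under 0.05 and a log2 difference of at least 1. The fit was tested on simulated data with changes planted in 1 group at a time and scored in the comparisons that start with that group. Apart from these changes each simulated gene had 1 mean and 1 spread in all groups, so the higher Tfh scale and unequal spreads were not covered. Alternatives were quantile normalization, a median shift, other filters, variance models, probe sets and sample sets, a replicate block and leaving out each array.

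All members were described, and genes named from the pathway lists were at most the 3 largest called, non-overlapping changes per list and comparison. Pim1, Ccnd2 and Rnf7 lie outside this rule and were named after their values were seen. Pim1 and Ccnd2 complete the STAT5 counts, and Rnf7 is set beside Rbx1. Similar genes were the 3 of highest correlation over the 8 arrays, without predicted genes; the rule also named matches over the 6 cultured arrays, which were left out after their values were seen, since the closest match of Socs5 lay below the filter value on all 6. One further list of target genes is not reported here. The members and lists were chosen with earlier results of these data known. Promoters are RefSeq sequences of GRCm38.p6; the build was used for them alone.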

Additional observations from a re-analysis of the deposited data

How the results depend on the processing

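Without an estimate of between-animal spread and with 2 arrays a group, several calls changed with the setting, and the causes were not tested. Variance models, fold threshold and filters changed no SOCS call. With the mean of a gene's probe sets 3, 2 and 2 members were called against Th1, Th2 and Th17. With the 2 Tfh arrays averaged fewer members, and fewer of all tested genes, were called against each type. With a median shift 3 members were called against Th17. Leaving out 1 array gave 3 to 5, 2 to 5 and 4 to 5 members, 0 to 1 for Th1 against Th17 and 0 to 0 for the other cultured pairs.

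Counts over all tested genes moved most between cultured types. For Th1 against Th17 they were 10 with a median shift, 9 with no filter, 0 with the 2 groups only, 3 with the 6 cultured arrays only and 5 with a replicate block. For Th1 against Th2 they were 0 and 28, and for Th2 against Th17 5 and 26, with the 2 groups only and the 6 cultured arrays only. Leaving out 1 array gave 3 to 112, 26 to 238 and 22 to 161 in that order. Against Tfh the ranges were 4520 to 5535 (Th1), 4679 to 5656 (Th2) and 4377 to 5453 (Th17).

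Directions turned as follows, in differences of the first minus the second type. Socs2 was 0.10 for Tfh minus Th1 by its dimmer probe set. Socs3 was -0.016 for Tfh minus Th2 after quantile normalization. Socs4 by its opposite probe set was -2.23, -2.18 and -2.30 against Th1, Th2 and Th17, 0.047 for Th1 minus Th2 and -0.12 for Th2 minus Th17; by another it was 0.012 and -0.28 in those 2 pairs, and as a mean of probe sets -0.010 for Tfh minus Th2. Socs5 for Th1 minus Th2 was -0.25 as a mean and -0.65 by its second probe set. Socs6 for Tfh minus Th1, Th2 and Th17 was -0.15, -0.041 and -0.30 with a median shift, -1.22, -1.12 and -1.33 after quantile normalization, and -0.29, -0.15 and -0.093 by its dimmest probe set. Socs6 for Th1 minus Th17 was 0.083 as a mean, 0.18 and 0.20 by its other probe sets, and for Th2 minus Th17 0.16 and 0.059.

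Leaving out 1 array, the Cish differences spanned -0.70 to 0.22 (Tfh minus Th1), -0.82 to 0.10 (Th1 minus Th17), -0.66 to 0.26 (Th1 minus Th2) and -0.40 to 0.077 (Th2 minus Th17). Socs1 spanned -1.09 to 0.022 (Th1 minus Th2) and -0.81 to 0.31 (Th2 minus Th17). For Th2 minus Th17, Socs2 spanned -1.04 to 0.035, Socs3 -0.10 to 0.94 and Socs7 -0.41 to 0.15. Socs4 spanned -0.63 to 0.40 (Th1 minus Th17). For Th1 minus Th2, Socs5 spanned -0.58 to 0.88 and Socs6 -0.094 to 0.29.

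Same-numbered replicates deviated from their group means with correlations of 0.02, -0.00 and 0.04 between Tfh and Th1, Th2 and Th17, and 0.00, 0.26 and 0.27 between Th1 and Th2, Th1 and Th17, and Th2 and Th17. The labels do not say that a number marks a shared animal, batch or day, so no pairing was assumed. With the replicate block Socs1 in Tfh minus Th17 had adjusted p = 0.0518, and it changed no other SOCS call.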
